A study of Mus musculus with 4 samples.

Results

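The genes described here are 4 genes of the outermost layer of the skin that were measured in a mesenchymal cell line: Lce1f, Lce1g, Crct1 and Cdsn. They were selected on the differences of these same probes between the arrays of this study, as epidermal genes with large ones, so their differences are given as a description and were not tested. They are 4 of 26793 gene names on the array, and 5 of 41146 probes represent them, since Lce1g has a pair of probes.

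Terminally differentiated keratinocytes replace their plasma membrane with the cornified envelope, a sheet of structural proteins that transglutaminases cross-link beneath the cell surface. Late cornified envelope (LCE) proteins, small proline-rich (SPRR) proteins, loricrin and involucrin are among its building blocks, and their genes lie together in the epidermal differentiation complex, on chromosome 3 of the mouse. Corneodesmosin, the product of Cdsn, is an adhesive glycoprotein of the corneodesmosomes that hold cornified cells to each other, and kallikrein proteases cleave it when cells are shed. These proteins are known from skin and other stratified epithelia, and stellate cells of the liver are mesenchymal.

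The cells were IMS/N, a hepatic stellate cell line made from normal livers of 129/Sv mice and immortalized with SV40, a feature that all groups share. The groups were PA and ADSC medium, PA (palmitic acid, a saturated fatty acid), ADSC medium, and control (neither). ADSC medium came from cultured adipose tissue-derived stem cells, which had been taken from the inguinal fat of male C57BL/6J mice 8 to 10 weeks old. Each group was 1 sample on 1 array. How much PA was given, for how long, and whether control cells received a vehicle is not stated in the sources used here. Whether the single line behaves like stellate cells in liver was not tested. The question in the series title is whether ADSCs restore stellate cells that PA has activated.

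All 4 arrays were read on 1 slide in 1 scan, so slide and scan do not separate the groups, while whether the cultures or extractions ran together is not stated in the sources used here. Between 67.5% and 70.0% of probes were well above background by the scanner software's flag, and no spot was saturated. A level below is the quantile-normalized log2 intensity of a probe, and a difference is one array's level minus another's on that log2 scale. Levels of different probes are not compared with each other. With 1 array per group there is no replicate error. The only measured spread is that between spots of one array, taken from 245 probes printed on 10 spots each. The SD of a difference between single spots was 0.292 for the dimmest levels and 0.0587 for the brightest, and it leaves out the variation between cultures. In these whole-culture RNA samples, fewer cells with a transcript and less of it per cell cannot be told apart.

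The probes show which part of each transcript was read. On mm9 the Lce1f probe (A_52_P547456) lies at chr3:92522631-92522690 on the minus strand, from base 644 of its transcript. The main Lce1g probe (A_52_P630463) lies at chr3:92554289-92554348 on the minus strand, from base 646, and the second Lce1g probe (A_51_P458474) lies 104 bases further downstream in the transcript, at chr3:92554185-92554244. The Crct1 probe (A_51_P461040) lies at chr3:92818192-92818251 on the minus strand, from base 592, and the Cdsn probe (A_52_P569998) at chr17:35693832-35693891 on the plus strand, from base 2384. Exon and UTR annotation on mm9 was not used here. Of each probe of 60 bases, 30 are shown 5′ to 3′ in the sense of the transcript, with the hexamers AATAAA and ATTAAA, the usual forms of the polyadenylation signal, in capitals:
Lce1f, bases 31 to 60: ctttgcatatttgttaagaATTAAAaataa
Lce1g, main probe, bases 23 to 52: tttgttataaATTAAATAAAaatcttgacg
Lce1g, second probe, bases 1 to 30: ttgtcatgtattatcttttccttcaaacac
Crct1, bases 1 to 30: gatacaagtcaggggtgggacttcagatca
Cdsn, bases 1 to 30: gctcAATAAActttgtggactttgtgcaga

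A hexamer of either form was found in the Lce1f, main Lce1g and Cdsn probes and in neither of the others. In the main Lce1g probe the pair overlap. The second Lce1g probe begins downstream of both. Lce1 genes are close paralogs, so probe sequences were compared with all others on the array. The main Lce1g probe shared a run of 17 bases with the Lce1i probe, and no other member probe shared 16 or more bases with any other probe. How much Lce1 RNA other than its own each probe binds was not tested, so values of single Lce1 genes are uncertain to that extent.

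Lce1f and Lce1g, which encode late cornified envelope proteins, followed the same order over the arrays. Both were highest with PA and ADSC medium, then with ADSC medium, then in control, and lowest with PA. Lce1f had a level of 8.50 with PA and ADSC medium, 5.86 with PA, 7.87 with ADSC medium and 7.21 in control, and the background-subtracted intensities behind these were 365, 65.8, 214 and 137. Neighbouring levels in this order differed by more than the spot SD of 0.0797 for that brightness. Lce1f was 6.24-fold higher with PA and ADSC medium than with PA (a log2 difference of 2.64), which was the 18th largest difference upward among 18751 genes compared. It was 2.55-fold lower with PA than in control (-1.35).

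For Lce1g the main probe had a level of 12.98 with PA and ADSC medium, 10.44 with PA, 11.87 with ADSC medium and 11.31 in control, with intensities of 8089, 1614, 3460 and 2364. Its levels were thus ordered as those of Lce1f, each step again larger than the spot SD of 0.0590. The probe was 5.84-fold higher with PA and ADSC medium than with PA (2.55), the 23rd largest difference upward. It was 1.84-fold lower with PA than in control (-0.88) and 3.18-fold higher with PA and ADSC medium than in control (1.67).

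The second Lce1g probe did not show the size of these differences. It was well above background on every array but dim, with a level of 3.85 with PA and ADSC medium, 3.27 with PA, 3.37 with ADSC medium and 3.43 in control, and intensities of 14.9, 10.7, 9.72 and 10.0. By level, PA and ADSC medium was highest and PA lowest, but the levels of PA, ADSC medium and control differed by less than the spot SD of 0.229. In the intensities, which are not normalized between arrays, ADSC medium was lowest and PA lay above control. The order of these 3 groups is therefore not resolved by this probe. Its difference between PA and ADSC medium and PA was 0.57, against 2.55 for the main probe. The probes of Lce1g therefore disagree in size, and only the main probe was used in counts over genes.

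Crct1, the cysteine-rich C-terminal 1 gene of the epidermal differentiation complex, ran the other way although it lies on the same chromosome. Its level was 6.99 with PA and ADSC medium, 8.31 with PA, 7.26 with ADSC medium and 7.75 in control, with intensities of 130, 371, 141 and 200. PA was highest and PA and ADSC medium lowest, and all steps exceeded the spot SD of 0.0797. Crct1 was 2.51-fold lower with PA and ADSC medium than with PA (-1.33), the 17th largest difference downward. With PA it was 1.48-fold higher than in control (0.56).

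Cdsn was also highest with PA. The probe had a level of 5.22 with PA and ADSC medium, 6.44 with PA, 4.61 with ADSC medium and 5.19 in control, with intensities of 37.9, 98.6, 22.7 and 34.0. Here ADSC medium was lowest, and the levels with PA and ADSC medium and in control differed by 0.03, less than the spot SD of 0.121. Cdsn was 2.33-fold lower with PA and ADSC medium than with PA (-1.22), the 29th largest difference downward, and 2.38-fold higher with PA than in control (1.25).

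**Figure D1:**
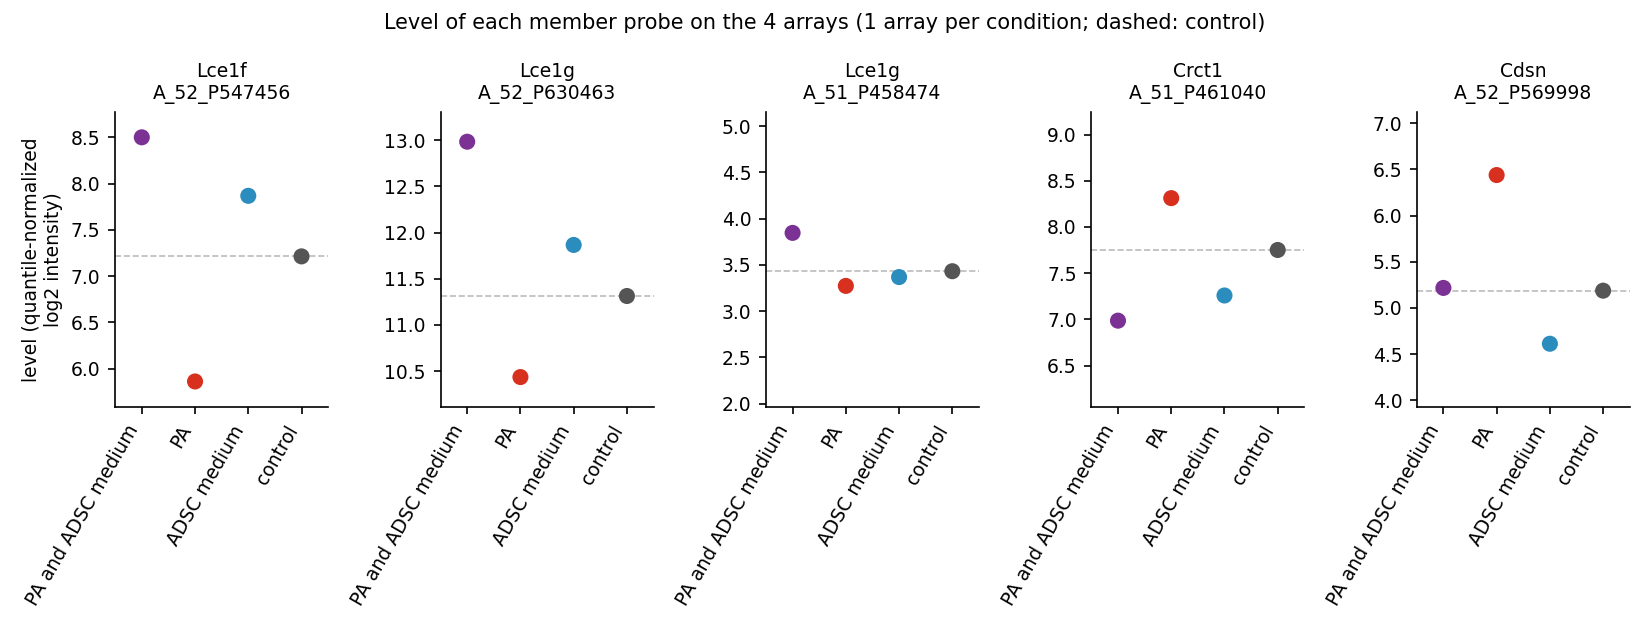
Level (quantile-normalized log2 intensity, vertical axis) of each of the 5 member probes on the 4 arrays, from left to right PA and ADSC medium, PA, ADSC medium and control; each point is 1 array, the dashed line marks control, and every panel spans the same range of log2 units. Lce1f and the main Lce1g probe are lowest with PA (5.86 and 10.44), while Crct1 and Cdsn are highest with PA (8.31 and 6.44).

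Counted at 2-fold, PA against control separated Lce1f (lower) and Cdsn (higher), 2 of the 4 members. Over all genes in that comparison 1.09% were at least 2-fold higher and 0.599% at least 2-fold lower. With ADSC medium against control 0 of the 4 reached 2-fold, where 0.533% of all genes were higher and 0.121% lower; the members' differences were 0.66 for Lce1f, 0.55 for Lce1g, -0.49 for Crct1 and -0.57 for Cdsn. PA and ADSC medium against control separated Lce1f (1.29) and Lce1g, both higher, against 1.81% of all genes higher and 0.422% lower. In that comparison Crct1 was 1.70-fold lower (-0.76).

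All 4 members differed at least 2-fold between PA and ADSC medium and PA alone, with Lce1f and Lce1g higher and Crct1 and Cdsn lower. The shares over all genes were 1.75% higher and 0.507% lower. Against ADSC medium alone, PA and ADSC medium separated Lce1g only, 2.17-fold higher (1.12), where 1.26% of all genes were higher and 0.477% lower. There Lce1f differed by 0.63, Cdsn by 0.60 and Crct1 by -0.27. Since members were chosen for their size of change, nothing is read from these shares. The comparisons with PA share the PA array, so a single high or low value on it moves them in opposite directions.

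The difference that PA made was of opposite sign without and with ADSC medium for Lce1f, Lce1g and Crct1. The difference with ADSC medium minus that without it was 1.99 for Lce1f, 1.99 for the main Lce1g probe, -0.83 for Crct1 and -0.65 for Cdsn. For Cdsn PA went with a higher level in both settings, 1.25 without ADSC medium and 0.60 with it.

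Background correction mattered for the dimmer members. With normexp correction (which adds an offset of 50) in place of the scanner's own subtraction, Lce1f with PA against control was -0.88 and Cdsn was 0.58, so neither reached 2-fold. Cdsn with PA and ADSC medium against PA was -0.62 in that setting, below 2-fold, while Lce1f (1.94), Lce1g (2.52) and Crct1 (-1.06) stayed beyond it. Scaling each array by its 75th percentile gave the same counts as quantile normalization.

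**Figure D2:**
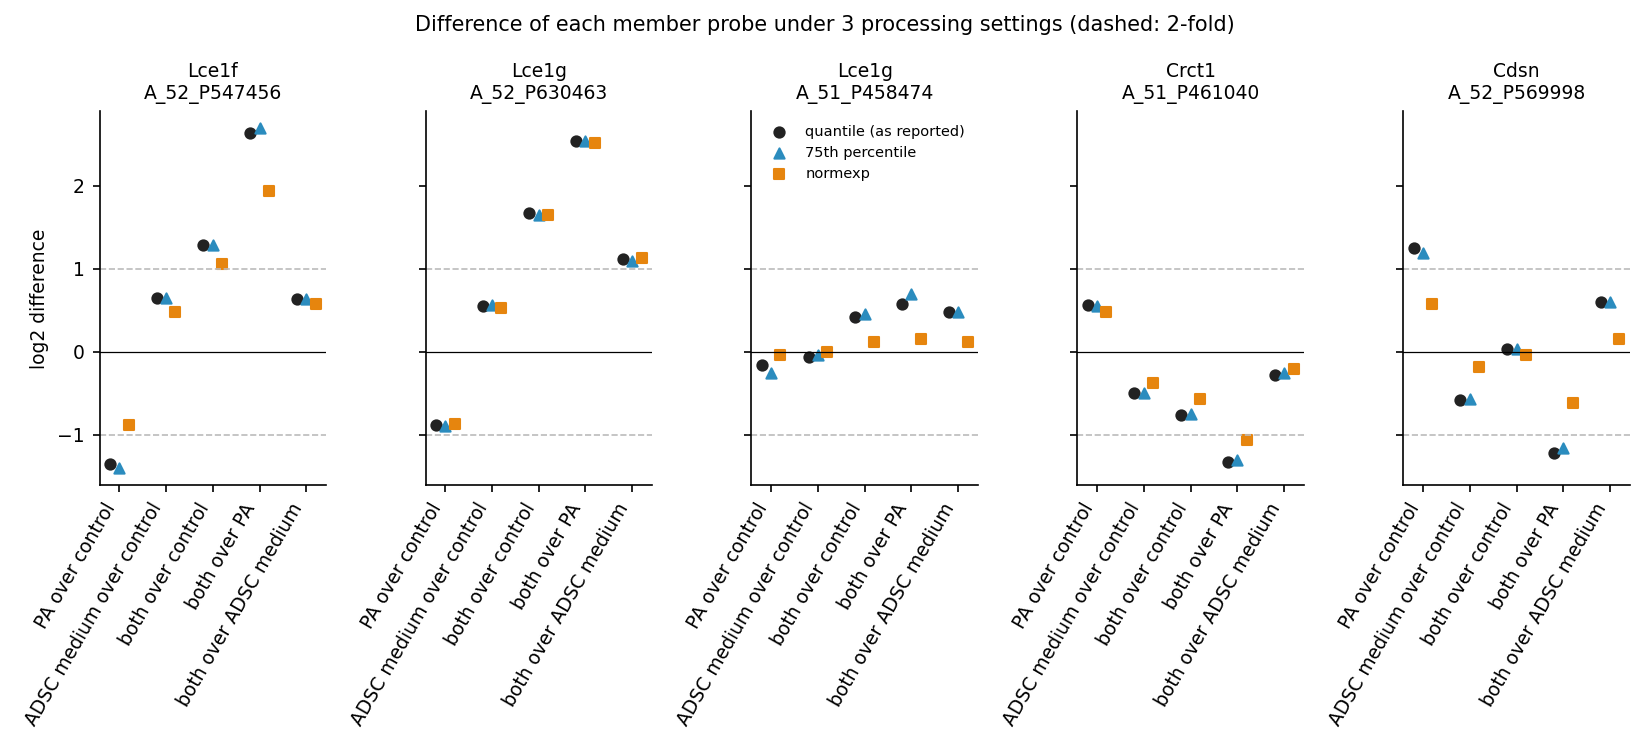
Log2 difference (vertical axis) of each member probe in the 5 comparisons ("both" stands for PA and ADSC medium) under quantile normalization, 75th percentile scaling and normexp correction; dashed lines mark 2-fold. Black and blue points nearly coincide, and normexp draws the dim probes toward 0: the Cdsn difference of PA over control is 1.25 with quantile normalization and 0.58 with normexp.

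Lce1f and Lce1g have neighbours of the same family, and these were read in the order of the chromosome, from Lce1a1 to Lce1m. The reference table lists 27 genes there, of which 18 have a probe, 14 were well above background on all 4 arrays and 3 on none (Lce1a2, Lce1c and Lce1d). An unbroken run of 7 genes with a probe shared the order of Lce1f and Lce1g. These were Lce1e, Lce1f, Lce1g, Lce1h, Lce1i, Lce1j and Kprp, which encodes a keratinocyte proline-rich protein. For Kprp, PA and ADSC medium and ADSC medium alone differed by 0.119, less than its spot SD of 0.121. The ends of this run, and the genes of the stretch named beside the members, were chosen after the values were seen.

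Within the run, PA and ADSC medium against PA gave differences of 2.28 to 2.64 (median 2.51), and PA against control gave -1.35 to -0.57 (median -0.88). ADSC medium against control gave 0.42 to 1.43 (median 0.55). The other 7 genes of the stretch that were well above background on all 4 arrays gave -1.33 to 0.37 (median -0.05) for PA and ADSC medium against PA and -0.28 to 0.93 (median 0.15) for PA against control. Crct1 is the lowest of those in the first of these comparisons, and its neighbour Lce1m had levels of 4.62 with PA and ADSC medium, 4.80 with PA, 4.47 with ADSC medium and 4.54 in control.

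Lce1i, whose probe shares bases with that of Lce1g, had levels of 11.88 with PA and ADSC medium, 9.36 with PA, 10.73 with ADSC medium and 10.20 in control. Lce1e, whose probe shares no such run with a member probe, had 6.47, 4.19, 5.46 and 4.76 in the same order of groups. Kprp, which is not an LCE gene, had 6.46 with PA and ADSC medium, 3.89 with PA, 6.35 with ADSC medium and 4.91 in control. Both were again lowest with PA and highest with PA and ADSC medium. For Kprp the step from ADSC medium to PA and ADSC medium was within the spot SD. Lce1j has a pair of probes that share the order: one had 9.38 with PA and ADSC medium, 7.04 with PA, 8.28 with ADSC medium and 7.86 in control, and the other 9.07, 6.55, 7.97 and 7.35. The nearest gene well above background at one side of the run, Lce1b, had 7.22, 6.93, 7.33 and 7.18 in that order, and at the other side Lce1l had 5.70, 5.75, 5.62 and 5.79, so these flanking genes differed by 0.40 and 0.16 at most between arrays. Under normexp the 7 genes of the run kept their signs in all 5 comparisons, and Kprp and Lce1e were smaller in size (0.95 and 1.03 for PA and ADSC medium against PA).

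**Figure D3:**
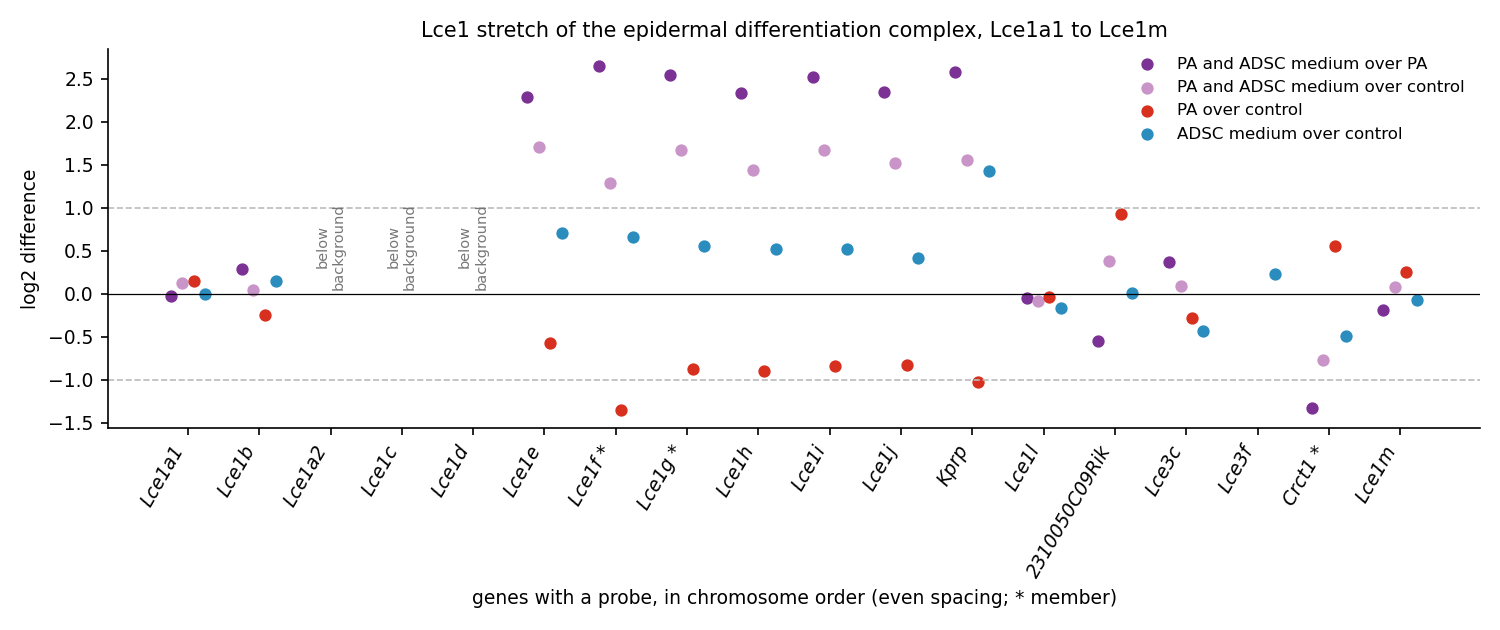
Log2 differences (vertical axis) of the genes with a probe from Lce1a1 to Lce1m, in chromosome order with even spacing; colours are 4 comparisons, dashed lines mark 2-fold, stars mark members, and genes well above background on no array are written as such. From Lce1e to Kprp the difference of PA and ADSC medium over PA lies between 2.28 and 2.64, while in the rest of the stretch it lies between -1.33 and 0.37 among genes well above background on all arrays. The ends of this run were chosen after these values were seen.

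Promoters were set beside each other because these genes moved together. The reference tables hold 1 promoter for Lce1g and a pair for Cdsn, and Lce1f and Crct1 are named only. The 100 bases before the start of the gene (RefSeq, GRCm38.p6, 5′ to 3′ in the sense of the gene) are shown for a pair of genes of the run, for Lce1c, which was well above background on no array, and for the nearly flat Lce1l. The capitals mark ATAAAAG, a form of the TATA box:
Lce1g, chr3:92752339-92752438, minus strand: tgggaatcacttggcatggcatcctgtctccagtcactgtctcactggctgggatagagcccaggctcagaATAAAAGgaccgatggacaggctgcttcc
Lce1h, chr3:92765066-92765165, minus strand: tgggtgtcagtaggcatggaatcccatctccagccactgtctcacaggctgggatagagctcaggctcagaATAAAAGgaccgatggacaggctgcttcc
Lce1c, chr3:92679147-92679246, plus strand: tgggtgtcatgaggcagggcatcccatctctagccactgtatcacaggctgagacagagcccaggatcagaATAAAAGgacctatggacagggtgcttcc
Lce1l, chr3:92851287-92851386, minus strand: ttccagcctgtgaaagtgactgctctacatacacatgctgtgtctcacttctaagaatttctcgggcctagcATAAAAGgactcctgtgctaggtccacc

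In a global alignment, Lce1h had 90 of 100 bases identical to Lce1g, Lce1i 85, Lce1c 83, Lce1e 78, Lce1j 63 and Lce1l 53. Lce1b, a gene outside the run that was well above background, had 67, more than Lce1j within it. ATAAAAG, searched on both strands, was in the windows of Lce1e, Lce1g, Lce1h, Lce1i and Lce1j, and also in those of Lce1c, Lce1d, Lce1a2, Lce1l and Lce1m outside the run. It was in none of the Cdsn, Sprr1a and Sprr1b windows. Of all 32851 promoters listed, 2.21% hold it. TGANTCA, a pattern bound by AP-1, was found in none of the Lce1, Cdsn, Sprr1a and Sprr1b windows and in 2.73% of all promoters. These are matches of letters in 100 bases and nothing is drawn from them about any factor.

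The LCE list as a whole was described by counts. Of 15 LCE genes on the array, 11 could be compared between PA and control, and 1 of these was at least 2-fold lower. The list median was -0.57 against -0.01 over all genes, of which 0.599% were at least 2-fold lower. At 1.5-fold it was 5 of 11 lower, where 3.27% of all genes were. Between PA and ADSC medium and PA, 6 of 11 were at least 2-fold higher, where 1.75% of all genes were. The median was 2.28, against -0.02 over all genes. With normexp 6 of 11 were also higher, with a median of 1.03. Between PA and ADSC medium and control it was 6 of 11 higher (median 1.29), where 1.81% of all genes were. Under normexp it was 4 of 11 (median 0.81). For PA against control the normexp median was -0.22, with 0 genes at least 2-fold lower. The 6 genes are those of the run, so the list repeats them.

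SPRR proteins cross-bridge the envelope. Of 13 SPRR genes on the array, 4 were well above background on no array, so whether they changed could not be read. The other 9 split into 3 that differed and others that stayed within 1.5-fold of control where they could be compared. Sprr1a had levels of 10.75 with PA and ADSC medium, 8.43 with PA, 8.97 with ADSC medium and 7.72 in control. It resembled Lce1g in being highest with PA and ADSC medium, but PA was above control (0.71) where Lce1g was below it. Sprr1b was well above background only with PA and ADSC medium (6.11) and ADSC medium (3.88), and it was at least 3.68 log2 higher with PA and ADSC medium than in control, or 1.15 with normexp. Sprr2h had 4.91 with PA and ADSC medium, 2.92 with PA and 3.78 with ADSC medium, and was not well above background in control. These made 3 of 9 SPRR genes at least 2-fold higher with ADSC medium than in control and likewise 3 of 9 with PA and ADSC medium against PA. With normexp the counts were 1 and 2. The shares of all genes at least 2-fold higher were 0.533% and 1.75% in these comparisons. Sprr2a1 had 15.06 with PA and ADSC medium, 14.96 with PA, 15.26 with ADSC medium and 15.14 in control.

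Of the other envelope genes, Kprp shared the order of Lce1f and Lce1g, with the limit on its highest levels given above. Lor (loricrin, a main envelope protein) had levels of 8.18 with PA and ADSC medium, 7.72 with PA, 7.84 with ADSC medium and 7.97 in control. Ivl (involucrin) was well above background on no array, and Flg (filaggrin) was not found under that name. Of 12 genes in the list of other envelope and fused S100 genes, 2 were at least 2-fold lower with PA than in control. They were Kprp (-1.02) and Prr9 (at least 1.08 lower, as PA was below background). In that comparison 0.599% of all genes were at least 2-fold lower. Scel (sciellin) was at least 1.53 lower with PA and ADSC medium than in control. With normexp Kprp was at -0.29, Prr9 at -0.12 and Scel at -0.21 in these comparisons, all below 2-fold.

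Among 8 desmosome and corneodesmosome genes that could be compared, Cdsn was the one at least 2-fold higher with PA than in control. It was also the one at least 2-fold lower with PA and ADSC medium than with PA. The shares over all genes were 1.09% and 0.507%. The list medians were -0.03 and -0.27. Dsp (desmoplakin, the plaque protein of desmosomes) had 3.33 with PA and ADSC medium, 3.64 with PA, 2.82 with ADSC medium and 3.54 in control. Dsg1a, a desmosomal cadherin of upper epidermis, was well above background on no array. Klk5, a protease that cleaves corneodesmosin, was likewise below it, and Klk7, another, stayed between 3.43 and 3.68. Of 8 desquamation proteases and inhibitors compared between PA and ADSC medium and control, 1 was at least 2-fold lower: Prss8, a membrane-anchored serine protease (below background with PA and ADSC medium, a level of 3.18 in control, and a difference of -0.05 with normexp). Of all genes in that comparison, 0.422% were at least 2-fold lower. Between PA and control 0 of 8 reached 2-fold, where 1.09% of all genes were higher and 0.599% lower.

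Cross-linking enzymes, keratins and regulators of keratinocyte differentiation gave few large differences. Tgm1, the main transglutaminase of the envelope, was well above background on no array, and Tgm3 was so on 2. None of the 10 genes for cross-linking and barrier lipids compared between PA and control reached 2-fold. Of all genes there, 1.09% were higher and 0.599% lower. Krt1 and Krt10, the keratins of differentiating epidermis, had differences of -0.17 and -0.22 with PA against control, and Krt5 and Krt14, those of its basal layer, had -0.11 and -0.29. Krt16 had 7.82 with PA and ADSC medium, 7.65 with PA, 7.07 with ADSC medium and 6.78 in control, and was 1.04 higher with PA and ADSC medium than in control (0.78 with normexp).

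Trp63, the master regulator of stratified epithelium, was well above background on no array. Klf4, a regulator of barrier formation, had levels of 13.53 with PA and ADSC medium, 13.26 with PA, 13.52 with ADSC medium and 13.50 in control. Zfp750, a factor of terminal epidermal differentiation, was the single one of 23 regulators at least 2-fold higher with PA than in control. It was higher by at least 1.31, and with normexp by 0.25. In that comparison 1.09% of all genes were at least 2-fold higher and 0.599% at least 2-fold lower. S100a5 was the one of 12 S100 genes of the complex at least 2-fold lower with PA than in control (-1.32, or -0.81 with normexp). Its levels of 8.04 with PA and ADSC medium, 6.16 with PA, 7.92 with ADSC medium and 7.48 in control were ordered as those of Lce1f.

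**Figure D4:**
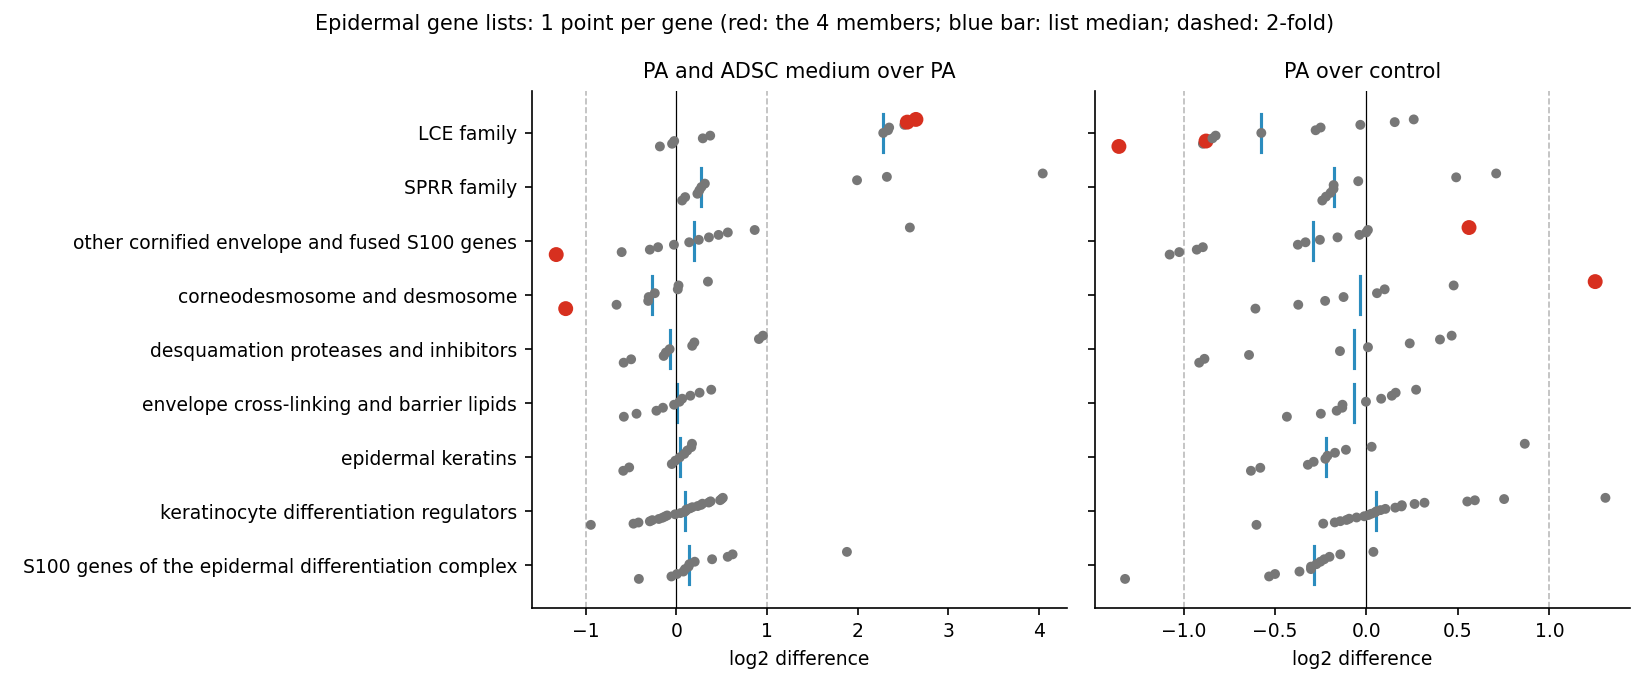
Log2 differences (horizontal axis) of every comparable gene in 9 epidermal lists, for PA and ADSC medium over PA (left) and PA over control (right); grey points are genes, red points the 4 members, blue bars the list medians and dashed lines 2-fold. Outside the LCE and SPRR lists, most points in the left panel lie within 2-fold, and Cdsn (-1.22) is the one point of its list beyond it.

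Markers of other cell types were read beside these values. Of 16 epithelial markers 10 were well above background on all arrays, and Epcam and Cdh1, which define epithelia, were so on none. Over all gene names, 17355 of 26793 were well above background on all 4 arrays, a share near that of these markers. The summed normalized intensity of all 16 markers was 965 with PA and ADSC medium, 1164 with PA, 1251 with ADSC medium and 1475 in control. Of 10 epithelial markers compared between PA and ADSC medium and control, 1 was at least 2-fold lower: Krt7, an epithelial keratin (1.32 lower). In that comparison 0.422% of all genes were at least 2-fold lower. The median over these 10 was 0.07, against -0.02 over all genes, so the fall of the sum was not shared by the list. Of 11 adipose markers 7 were well above background on all arrays, again near the share of all gene names. All 11 together had sums of 21710, 14397, 21113 and 15017 in the same order of groups, higher on both arrays with ADSC medium. Of 7 adipose markers compared, 0 reached 2-fold between ADSC medium and control, where 0.533% of all genes were higher and 0.121% lower. Between PA and ADSC medium and control it was also 0 of 7, where 1.81% of all genes were higher and 0.422% lower. The list median was 0.37 in both comparisons, against -0.01 and -0.02 over all genes. Between PA and ADSC medium and PA, 1 of 7 was beyond 2-fold, upward (median 0.50), where 1.75% of all genes were. The adipocyte genes Adipoq, Plin1 and Lep and the stromal gene Dpp4 were below background on every array. Fabp4, a fatty acid binding protein of adipocytes, had 11.99 with PA and ADSC medium, 10.95 with PA, 12.07 with ADSC medium and 11.46 in control. The part of these markers in the results was not tested.

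Hepatocyte, macrophage and endothelial lists had 3 of 8, 5 of 9 and 4 of 8 genes on the array well above background on at least 1 array. Over all gene names it was 18930 of 26793. Of the hepatocyte, macrophage and endothelial genes, 1, 5 and 4 could be compared between PA and control, and none of those compared was at least 2-fold apart. Over all genes there, 1.09% were higher and 0.599% lower, so nothing is read from so few genes. Alb, Ptprc and Pecam1 were below background throughout. Markers of the labelled cell type were read too: of 16 stellate and myofibroblast genes 14 were well above background on all arrays, and Lrat and Reln, markers of quiescent stellate cells, were on none. Over all gene names, 17355 of 26793 were well above background on all 4 arrays. Vim was level (16.06 with PA and ADSC medium, 16.08 with PA, 16.05 with ADSC medium and 16.05 in control), and Col1a1 stayed between 14.81 and 15.09. Acta2, smooth muscle actin, had 13.56 with PA and ADSC medium, 14.58 with PA, 13.35 with ADSC medium and 14.78 in control. Pdgfrb, the PDGF receptor of stellate cells, was 1.33 higher with PA and ADSC medium than with PA, Spp1 (osteopontin) 2.04 higher and Des (desmin) 1.13 lower. With normexp Des was 0.25 lower, within 2-fold.

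Genes next to Cdsn differed less between arrays than Cdsn, whose levels spanned 1.82. Psors1c2, on one side, had levels of 5.64 with PA and ADSC medium, 5.82 with PA, 5.48 with ADSC medium and 5.75 in control. Cchcr1 and Tcf19, next on that side, and Vars2 and Gtf2h4, on the other, differed by at most 0.24 over the arrays, and 2300002M23Rik was below background. Psors1c2 was, like Cdsn, highest with PA and lowest with ADSC medium, but PA and control differed by 0.06, less than its spot SD of 0.121. Gtf2h4 had levels of 11.49 with PA and ADSC medium, 11.68 with PA, 11.44 with ADSC medium and 11.47 in control. It was, like Cdsn, highest with PA, while its other levels differed by less than its spot SD of 0.0590. Tcf19 was highest with PA as well (14.48, against 14.40 with PA and ADSC medium, 14.32 with ADSC medium and 14.32 in control). So was Cchcr1, where PA (10.71) and ADSC medium (10.67) differed by less than its spot SD of 0.0667.

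The genes whose pattern over the 4 arrays was nearest to each member's were looked for among 18929 others, by the Euclidean distance between levels centred on each gene's own mean. For the main Lce1g probe these were Lce1i (0.04), Gem (0.09) and Lce1j (0.17). Gem, a small GTP-binding protein gene on another chromosome, had levels of 11.13 with PA and ADSC medium, 8.70 with PA, 10.03 with ADSC medium and 9.52 in control. Lce1f was nearest to Spin2d (0.22), Cd300lb (0.25) and Lrrn3 (0.28), so no Lce1 gene was among its nearest 3. Crct1 was nearest to Nos1 (0.08), Tcstv1 (0.14) and Prr23a3 (0.16), and Cdsn to Tmc7 (0.21), Tdrd12 (0.21) and 4930579D07Rik (0.22). Some of these distances include levels below background: Tdrd12 and 4930579D07Rik were well above background only with PA, Prr23a3 only with PA and in control, and Spin2d and Cd300lb on all arrays but that with PA. The distances are a description of these 4 arrays.

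In the authors' deposited tables, probe names without values, the Crct1 and Cdsn probes are both among the 1580 probes listed as higher with PA than in control and among the 920 listed as higher with PA than with PA and ADSC medium. Neither of those lists in the authors' deposited tables holds the Lce1f probe or either Lce1g probe. Those lists hold only probes higher with PA, so a probe lower with PA could not be in them. No list of probes lower with PA was used here.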

How the data were processed

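Total RNA of 4 cultures was labelled with Cy3 and hybridized to 1-colour Agilent arrays of design 014868, annotated on mm9 and read with Agilent Feature Extraction 12.1.1.1, per the file headers. The deposited intensity is the processed signal of each spot, which the authors' scanner software had background-subtracted, per the file headers. The authors' notes name quantile normalization, and R 3.5.1 is given per the submitters' processing notes. From these intensities, control spots and outlier-flagged spots (82 to 104 on an array) were dropped, the spots of each probe were averaged on the log2 scale, and quantile normalization of all 4 arrays together used limma 3.58.1 in R 4.3.3. Of 41174 probes 41146 had a value on all arrays. Later steps used Python 3.11.15, numpy 2.4.6 and pandas 2.3.3.

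A probe was well above background when flagged so on more than 50% of its spots. Symbols came from RefSeq accessions for 28680 probes, and 12466 kept the array's name. Of several probes of a gene, the one highest on average stood for it. It entered a comparison when well above background on at least 1 of the 2 arrays. The dim side was then raised to that array's lowest level well above background (2.11 with PA and ADSC medium, 2.07 with PA, 2.30 with ADSC medium, 2.43 in control), and the difference is written "at least". There is no test between groups and no p-value. The calling step was tested on simulated data with spot noise only and with changes beyond 2-fold in brighter probes. That simulation does not cover the spread between cultures or changes in dim probes. Members and lists were chosen with earlier results of these data known. Named genes were the members, list genes at least 2-fold apart (up to 4 a list) with a fixed set of defining genes, the nearest genes on the chromosome, and the 3 most alike; other genes of the Lce1 stretch, Sprr2a1 and Dsp were added after their values were seen. The alternatives were 75th percentile scaling, normexp with an offset of 50, no floor, and the mean of a gene's detected probes. The number of arrays, 1 per group, limits the precision.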

Additional observations from a re-analysis of the deposited data

Results flagged for a closer look

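In Lce1f, Lce1g and Crct1 the difference between PA and no PA was of opposite sign without and with ADSC medium. For Lce1f it was -1.35 without ADSC medium and 0.63 with it. For the main Lce1g probe it was -0.88 without ADSC medium and 1.12 with it. For Crct1 it was 0.56 without ADSC medium and -0.27 with it. Each value rests on a pair of single arrays, and whether the sign differs beyond the spread between cultures was not tested.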

How the results depend on the processing

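Counts of members at least 2-fold apart were the same with 75th percentile scaling in all 5 comparisons. Leaving out the floor could not change them, as all member probes were well above background on every array. With normexp 0 members were apart between PA and control, against 2 as reported. With the mean of a gene's detected probes 0 were apart between PA and ADSC medium and ADSC medium, against 1, since the dim second Lce1g probe enters that mean. Of 30 member values, 75th percentile scaling kept 30 within the spot SD. With normexp 12 were within it and 18 moved, and 1 turned its sign: Cdsn between PA and ADSC medium and control, at -0.04 against 0.03, both within the spot SD. Normexp adds an offset of 50, and dim probes lie below or near that intensity. No paired analysis was possible because each group has 1 array. The limit on all values is that no condition was repeated.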
